A study of Mus musculus with 203 samples.

Results

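Pappa2 and the genes of the insulin-like growth factor (IGF) pathway around it were followed across 3 types of motor neurons in the mouse nucleus ambiguus (Amb), a nucleus of the medulla whose axons leave in the vagus nerve. The 10 genes are the proteases Pappa2 and Pappa, the ligands Igf1 and Igf2, the receptor Igf1r, the binding proteins Igfbp3, Igfbp4 and Igfbp5, and the protease inhibitors Stc1 and Stc2. They were taken by name from a table of 24029 genes, because of their levels in these same neurons, and all 10 have a row in it. Neurons of wild-type C57BL/6 mice (C57BL/6NCrl in the study's methods) had been filled with the fluorescent tracer cholera toxin B from the pericardial space or from the cricothyroid muscle of the larynx. Each was aspirated from a living brainstem slice, when the pups were 2 to 4 days old, and sequenced by Smart-seq2, which reads whole transcripts without molecular identifiers. The authors' annotation divides the cardiac neurons into 53 ACP (Amb cardiopulmonary) and 98 ACV (Amb cardiovascular) neurons, and calls the 52 neurons labeled from the larynx Larynx.

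The mouse that each neuron came from is not in the labels, so the neurons of a type were treated as 1 sample and no test was made. An SD below is the spread over neurons. ACP and ACV had been made by clustering the same counts, while Larynx follows the site of the tracer. The genes were chosen for their levels in these neurons, so each difference is a description. Levels are reads per 1000000 counts outside the ribosomal RNA gene Rn45s (RPM). Total counts ran from 542162 to 3292763 per neuron. The median outside Rn45s was 1115380 in ACP, 1120510 in ACV and 560892 in Larynx neurons, in which Rn45s took a median of 58.6% of counts, against 34.3% in ACP and 35.8% in ACV neurons. All 7 listed markers of cholinergic cranial motor neurons (such as Slc18a3, the vesicular acetylcholine transporter, and Isl1) were read in every type. Summed, the ACP markers Calb1, Trhr and Tacr3 had medians of 339 RPM in ACP, 1.06 RPM in ACV and 54.4 RPM in Larynx neurons. At least 1 of them was read in 54.1% of ACV neurons, at up to 447 RPM, and in 76.9% of Larynx neurons, at up to 1055 RPM. The ACV markers Bche, Ghsr and Htr3b, also summed, had medians of 0 RPM in ACP, 146.2 RPM in ACV and 0 RPM in Larynx neurons. Ghsr and Htr3b were at 0 in all ACP neurons, but Bche was read in 43.4% of them, at up to 129.3 RPM. Markers of other cells were present as well. All 8 astrocyte, 9 oligodendrocyte and 10 microglia markers were read in each type. The summed microglia level had a median of 100.1 RPM (0 to 918) in ACP, 106.8 RPM (0 to 7882) in ACV and 99.2 RPM (0 to 2897) in Larynx neurons. Astrocyte markers were higher, with summed medians of 1534 RPM in ACP, 1335 RPM in ACV and 1620 RPM in Larynx neurons, and up to 30684 RPM in ACV.

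IGF1 and IGF2 are secreted growth factors that act through the receptor tyrosine kinase IGF1R, and in the developing brain they support the growth and survival of neurons. Outside cells most IGF is held by binding proteins. The secreted metalloproteinases PAPP-A2, the product of Pappa2, and PAPP-A, the product of Pappa, cut particular binding proteins and so release IGF next to the cell. PAPP-A2 cuts IGFBP3 and IGFBP5, PAPP-A cuts IGFBP4 and IGFBP5, and the stanniocalcins STC1 and STC2 block both enzymes.

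Both enzymes belong to the metzincins, and the coding bases around their extended zinc-binding motif are shown because this is the part of Pappa2 and Pappa that makes each product a protease. Capitals mark the codons of the fixed residues of the motif, which occurs once in frame in each coding sequence (GENCODE vM21, GRCm38, 5′ to 3′ on the coding strand).
Pappa2: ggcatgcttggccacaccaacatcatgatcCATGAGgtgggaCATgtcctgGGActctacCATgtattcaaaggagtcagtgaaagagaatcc
Pappa: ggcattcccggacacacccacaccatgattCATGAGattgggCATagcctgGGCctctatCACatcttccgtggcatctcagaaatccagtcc
The Pappa2 stretch lies at chr1:158857306-158857398 on the minus strand, within exon 4 of 22, and the Pappa stretch at chr4:65180890-65180982 on the plus strand, also within exon 4 of 22. The 93 bases are identical at 64 positions (68.8%), and the 33 bases of the motif at 25. In the same build Pappa2 spans chr1:158711727-158980490 on the minus strand and Pappa chr4:65124174-65357509 on the plus strand. Some exon bases of Pappa2 are shared with 1600012P17Rik on the same strand, which has no row of its own in the table.

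Among the proteases, Pappa2 was the member that differed most between the cardiac types. In ACP neurons its level had a lowest value of 0, a median of 133.9 RPM and a highest value of 1262 RPM, with a mean of 255 ± 299 RPM (SD, n = 53 neurons). In ACV neurons the median was 0 and the highest value 70.3 RPM, with a mean of 1.36 ± 8.38 RPM (SD, n = 98). In Larynx neurons the median was 0 and the highest value 412 RPM, with a mean of 15.7 ± 66.2 RPM (SD, n = 52). The mean was 187.7-fold higher in ACP than in ACV neurons and 16.2-fold higher than in Larynx neurons, and it was 11.6-fold higher in Larynx than in ACV neurons. The ranges overlapped: 37 of the 53 ACP neurons lay above every ACV neuron and 12 above every Larynx neuron. The sum of counts was 14481 (14246 to 14719) in ACP, 95 (76.9 to 116.1) in ACV and 300 (267 to 336) in Larynx neurons, with exact 95% Poisson intervals, which like all intervals here cover counting error only. Pappa2 was the gene that chose the set, and it is also on the study's own list of ACP genes from these neurons, so these values are not independent evidence of its pattern. That list marks Pappa2 as not expressed in laryngeal neurons, by a rule that is not given, while some Larynx neurons had reads here.

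**Figure D1:**
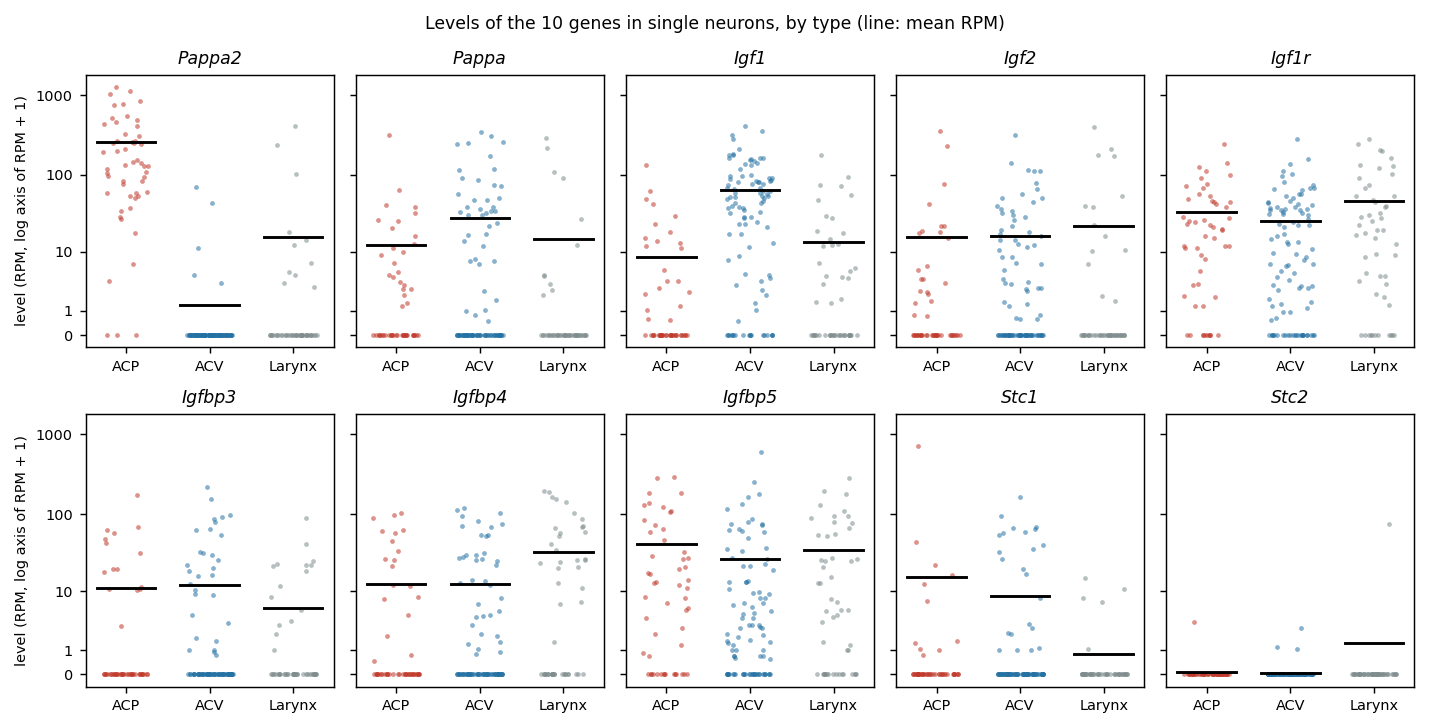
Level of each of the 10 genes in every neuron (RPM, on a log axis of RPM + 1), by type, with 1 point per neuron (53 ACP, 98 ACV, 52 Larynx) and a line at the mean RPM. Pappa2 lies mostly above 50 RPM in ACP and at 0 in most ACV and Larynx neurons, Igf1 is higher in ACV, and the other genes overlap across all 3 types.

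A read of Pappa2 was found in 50 of 53 ACP neurons (94.3%, exact binomial 95% interval 84.3 to 98.8), 5 of 98 ACV neurons (5.10%, 1.68 to 11.5) and 11 of 52 Larynx neurons (21.2%, 11.1 to 34.7). With each neuron thinned at random to 118492 counts outside Rn45s, the lowest total of any neuron, the shares were 94.3%, 3.06% and 17.3%. The gap was therefore as wide at 1 common depth. Within ACP neurons the level still spread widely, with a lower quartile of 57.9 RPM and an upper quartile of 309 RPM.

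The neurons that went against the pattern were few. ACP neurons AMB030, AMB037 and AMB048 had no read of Pappa2, although they held 1225433, 755299 and 1115375 counts outside Rn45s. AMB030 had reads of the ACP markers Calb1 (47.3 RPM) and Trhr (59.6 RPM), AMB037 had Calb1 at 13.2 RPM and no Trhr, and AMB048 had neither. Of the 95 Pappa2 counts in ACV neurons, 54 came from ACV neuron AMB107 (70.3 RPM), which also had Bche, an ACV marker, at 117.2 RPM and Calb1 at 45.6 RPM. Without that neuron the ACV mean was 0.65 RPM. The next ACV neuron, AMB117, had 43.4 RPM of Pappa2 with Bche at 133.6 RPM, Calb1 at 281 RPM and Trhr at 58.4 RPM. The high Larynx values came from neurons AMB166 (412 RPM), AMB158 (235 RPM) and AMB196 (102.4 RPM). The laryngeal peptide gene Calca was read in all of them, at 517, 1928 and 66.1 RPM. Calca alone does not set them apart, since ACP neuron AMB052 had it at 744 RPM. The summed Larynx markers Calca, Calcb, Pnoc and Uts2 had a median of 2460 RPM in Larynx and 37.6 RPM in ACP neurons. AMB166 had only 181910 counts outside Rn45s, 75 of them from Pappa2, and without it the Larynx mean was 7.97 RPM.

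Pappa, the paralog, ran the other way between the cardiac types. Its median was 0 in every type. The mean was 12.5 ± 44.3 RPM in ACP (SD, highest 315 RPM), 28.4 ± 66.4 RPM in ACV (highest 341 RPM) and 14.7 ± 52.7 RPM in Larynx neurons (highest 293 RPM), which is 2.28-fold higher in ACV than in ACP neurons. The share of neurons with a read hardly differed between the cardiac types, 45.3% (31.6 to 59.5) in ACP and 41.8% (31.9 to 52.2) in ACV, and was 21.2% (11.1 to 34.7) in Larynx neurons. The difference thus lay in the level of neurons that had reads, whose median was 9.50 RPM in ACP and 34.1 RPM in ACV neurons. The ratio fell under 2-fold in the neurons with at most 1800 counts of the astrocyte gene Apoe, where the log2 ratio of ACP over ACV was -0.78, in those with at most 900 (-0.52), and in those whose summed microglia markers were at or under the median over all neurons, where it was -0.77. The ratio of ACV over Larynx, 1.94-fold, passed 2-fold with TMM library sizes, with DESeq2 size factors, at 1000000 counts or more and without the highest neurons. Counted together, at least 1 of the 2 proteases was read in all but 1 of the 53 ACP neurons, while neither was read in 56 of 98 ACV (57.1%) and 32 of 52 Larynx neurons (61.5%).

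Of the ligands, Igf1 (chr10:87858265-87937042 on the plus strand) was higher in the other cardiac type. Its level had a median of 43.5 RPM and a highest value of 407 RPM in ACV neurons, with a mean of 64.7 ± 78.4 RPM (SD, n = 98). In ACP neurons the median was 0, the highest value 132.1 RPM and the mean 8.45 ± 21.7 RPM. In Larynx neurons the median was 0, the highest value 179.004 RPM and the mean 13.6 ± 31.4 RPM. Igf1 was thus 7.66-fold higher in ACV than in ACP neurons and 4.76-fold higher than in Larynx neurons, with overlapping ranges, since 17 of 98 ACV neurons lay above every ACP neuron. ACP and Larynx neurons were within 2-fold of each other, but the log2 ratio of ACP over Larynx, -0.69, was 0.07 when Rn45s was kept in the totals and -2.03 in neurons at or under the median of microglia markers. A read of Igf1 was found in 81.6% of ACV (72.5 to 88.7), 41.5% of ACP (28.1 to 55.9) and 46.2% of Larynx neurons (32.2 to 60.5), and after thinning in 72.4%, 22.6% and 32.7%. Microglia also make IGF1. The ACV neurons with Igf1 had a median of summed microglia markers of 101.1 RPM and those without 144.4 RPM. They also had more genes read (median 8132 against 5442.5). In the neurons whose summed microglia markers were at or under the median, the log2 ratio of ACP over ACV was -4.08, against -2.94 in all neurons. In ACP neurons microglia markers moved with Igf1 (median 128.6 RPM with, 63.5 RPM without), as did fibroblast markers (42.1 RPM against 0), and the part of these cells in the Igf1 values of either cardiac type was not tested. Igf1 is on the study's list of ACV genes from these neurons, so these values are not independent evidence of its pattern. The list marks Igf1 too as not expressed in laryngeal neurons, while 46.2% of Larynx neurons had a read here.

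In all neurons Igf2 was within 2-fold between all types. Its mean was 16.1 ± 57.8 RPM in ACP, 16.4 ± 40.8 RPM in ACV and 22.3 ± 69.2 RPM in Larynx neurons (SD), from highest values of 354, 313 and 396 RPM and medians of 0, 0.29 and 0 RPM. The share with a read was 41.5% in ACP, 50% in ACV and 26.9% in Larynx neurons. Fibroblast markers, which mark cells of the meninges and vessels, moved with it in every type. Their summed level had a median of 46.8 RPM in ACP neurons with Igf2 and 0.86 RPM in those without, 27.6 against 1.03 RPM in ACV and 81.9 against 13.8 RPM in Larynx neurons. All 5 listed fibroblast markers were read in each type, with a summed level of 0 to 804 RPM in ACP, 0 to 1234 RPM in ACV and 0 to 13375 RPM in Larynx neurons. The summed astrocyte, oligodendrocyte and microglia markers also had higher medians with Igf2 in every type. So did the number of genes read, at 9406.5 against 7515 in ACP, 8156 against 7379 in ACV and 8991.5 against 6908.5 in Larynx neurons. The part of these cells in the Igf2 values was not tested. In neurons at or under the median of microglia markers Igf2 was lower in ACP, with a log2 ratio of -2.14 over ACV and -3.61 over Larynx, and the ratio of ACV over Larynx was -1.47. With at most 900 counts of Apoe the log2 ratio was -1.51 for ACP over ACV, -2.90 for ACP over Larynx and -1.39 for ACV over Larynx, and the last was -1.005 from summed counts. Igf2 also shares exon bases with Igf2os on the opposite strand, which has its own row, and whether counting used the strand is not given in the sources used here, so Igf2 is uncertain on that account too.

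**Figure D2:**
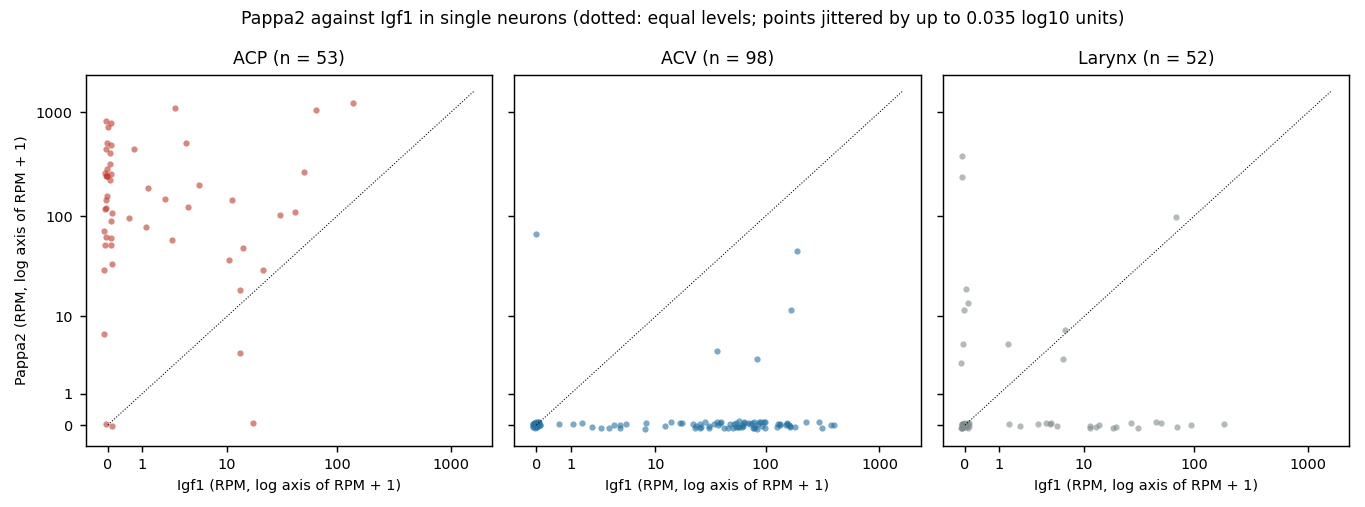
Pappa2 against Igf1 in each neuron (RPM, log axes of RPM + 1), 1 panel per type, with a dotted line at equal levels. Of the ACP neurons 49 of 53 lie above the line, and of the ACV neurons 80 of 98 lie below it.

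Set side by side in single neurons, Pappa2 was above Igf1 in 49 of 53 ACP neurons (92.5%, 81.8 to 97.9), 1 of 98 ACV neurons and 9 of 52 Larynx neurons. Igf1 was above Pappa2 in 2 ACP, 80 ACV (81.6%, 72.5 to 88.7) and 21 Larynx neurons (40.4%, 27.01 to 54.9), 2 ACP, 17 ACV and 21 Larynx neurons had neither, and Larynx neuron AMB193 had both at 6.97 RPM. The exon lengths are close, 10.3 kb for Pappa2 and 9.90 kb for Igf1. Both genes were read together in 21 ACP, 4 ACV and 4 Larynx neurons. Some ACP neurons therefore had reads of the protease and the ligand. At least 1 ligand, Igf1 or Igf2, was read in only 30 of 53 ACP neurons (56.6%, 42.3 to 70.2), against 88 of 98 ACV (89.8%, 82.03 to 94.997) and 28 of 52 Larynx neurons (53.8%, 39.5 to 67.8).

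The receptor Igf1r was read in most neurons of every type, 81.1% of ACP (68.03 to 90.6), 75.5% of ACV (65.8 to 83.6) and 78.8% of Larynx neurons (65.3 to 88.9). Its mean was 33.4 ± 45.3 RPM in ACP (median 19.4, highest 244), 25.97 ± 40.7 RPM in ACV (median 8.86, highest 280.0) and 46.4 ± 67.7 RPM in Larynx neurons (median 18.7, highest 283). No pair of types was 2-fold apart in all neurons, while in those with at most 900 counts of Apoe the log2 ratio was 1.05 for ACP over ACV and -1.20 for ACV over Larynx. The order of ACP and Larynx turned when Rn45s was kept in the totals.

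Among the 3 binding proteins of the set, Igfbp5, which both proteases can cut, was the one read most often. A read was found in 71.7% of ACP (57.7 to 83.2), 68.4% of ACV (58.2 to 77.4) and 67.3% of Larynx neurons (52.9 to 79.7). After thinning the shares were 54.7%, 39.8% and 51.9%. Its mean was 41.1 ± 69.1 RPM in ACP (median 11.1, highest 295), 26.3 ± 72.8 RPM in ACV (median 2.82, highest 608) and 34.5 ± 58.01 RPM in Larynx neurons (median 5.39, highest 281.5), so that no pair was 2-fold apart. In neurons with at most 1800 counts of Apoe the log2 ratio of ACP over ACV was 1.27, against 0.64 in all neurons. Igfbp3, the other PAPP-A2 substrate, was read in 28.3% of ACP, 30.6% of ACV and 28.8% of Larynx neurons. Its mean was 11.1 ± 28.4 RPM in ACP (highest 172.7), 12.02 ± 32.96 RPM in ACV (highest 216) and 5.77 ± 14.9 RPM in Larynx neurons (highest 89.8). The medians of Igfbp3 were 0, and its ratio of ACV over Larynx, 2.08-fold, passed 2-fold barely, and did not with DESeq2 size factors, from summed counts, or in the neurons limited by total counts or by Apoe. Its ratio of ACP over Larynx, 1.92-fold, did pass 2-fold with Rn45s in the totals, after thinning, at both Apoe limits and at low microglia markers.

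Igfbp4, the substrate of PAPP-A, was higher in Larynx neurons than in both cardiac types. Its mean was 32.5 ± 52.1 RPM there (median 4.05, highest 194.4), 12.7 ± 26.2 RPM in ACP (median 0, highest 101.9) and 12.5 ± 26.6 RPM in ACV neurons (median 0, highest 118.2). These are 2.57-fold over ACP and 2.595-fold over ACV neurons. With Rn45s kept in the totals, a change that moved the median log2 ratio of all genes over Larynx to 0.58 for ACP and 0.52 for ACV, both ratios kept their direction and fell under 2-fold. Between the cardiac types the log2 ratio of ACP over ACV was 0.01 and kept its sign in 6 of 10 alternatives. It was -1.24 in neurons at or under the median of microglia markers. A read of Igfbp4 was found in 51.9% of Larynx (37.6 to 65.99), 35.8% of ACP (23.1 to 50.2) and 38.8% of ACV neurons (29.1 to 49.1). Pappa and Igfbp4 were read in the same neuron in 10 ACP, 20 ACV and 6 Larynx neurons. Summed fibroblast markers had higher medians in neurons with Igfbp4 than in those without. They were 22.4 against 2.12 RPM in ACP, 22.01 against 1.67 RPM in ACV and 21.2 against 12.7 RPM in Larynx neurons. Microglia markers were higher with it in ACP (186.9 against 54.9 RPM) and ACV, and lower in Larynx neurons. Fibroblast medians were also higher with Igfbp3 and Igfbp5 in every type. The part of other cells was not tested.

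The inhibitors were scarce. Stc1 was read in 20.8% of ACP (10.8 to 34.1), 23.5% of ACV (15.5 to 33.1) and 9.62% of Larynx neurons (3.196 to 21.03). Its mean was 15.6 ± 98.8 RPM in ACP neurons, but 325 of the 433 counts came from ACP neuron AMB044 at 719.8 RPM, and without it the mean was 2.07 RPM. In ACV neurons the mean was 8.40 ± 24.4 RPM (highest 165.1) and in Larynx neurons 0.80 ± 2.87 RPM (highest 15.1). Stc1 was thus 10.4-fold higher in ACV than in Larynx neurons. Summed fibroblast markers were higher with Stc1 than without in ACP (median 28.9 against 2.12 RPM) and ACV neurons, but not in Larynx neurons. The part of other cells was not tested. The 19.4-fold ratio of ACP over Larynx turned to a log2 ratio of -0.24 in the neurons at or under the median of microglia markers, and the log2 ratio of ACP over ACV, 0.89 in all neurons, was -1.72 with the highest neuron of each type left out. Stc2 was read in 1 ACP, 3 ACV and 1 Larynx neuron, the last being Larynx neuron AMB188 with 20 counts (75.3 RPM). It was below the 10% detection minimum in all types and was left out of the counts of differences. Pappa2 was read together with Stc1 or Stc2 in 10 of 53 ACP neurons (18.9%, 9.44 to 31.97).

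**Figure D3:**
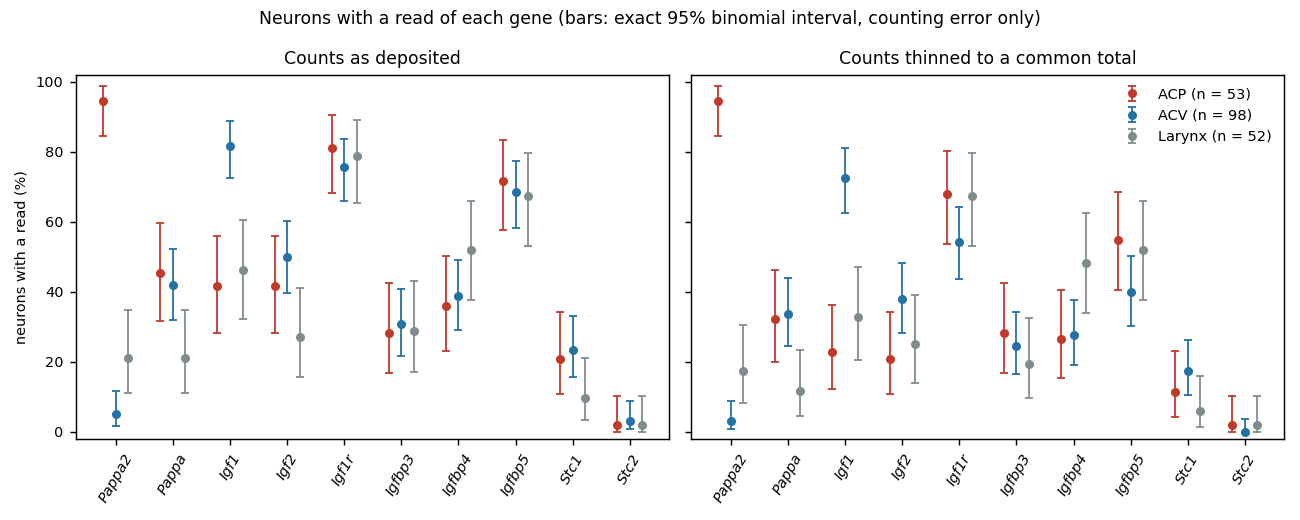
Share of neurons with a read of each gene (%), for counts as deposited and thinned to 118492 counts per neuron, with exact 95% binomial intervals (53 ACP, 98 ACV and 52 Larynx neurons). Pappa2 stands at 94.3% in ACP neurons in both panels, and Igf1 in ACV neurons at 81.6% and 72.4%.

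Put on a scale per exon length, where genes can be compared, Pappa2 stood far above the other members in ACP neurons, with a mean of 24.8 RPM per kb, followed by Igfbp5 at 6.85 RPM per kb. Stc1 came next at 3.72 RPM per kb, a place that rested on neuron AMB044, which held 325 of its 433 counts. In ACV neurons the order was led by Igf1 at 6.54 RPM per kb, then Igfbp5 at 4.39 and Igfbp3 at 3.84 RPM per kb, with Pappa2 at 0.13. In Larynx neurons Igfbp4 led at 7.36 RPM per kb, followed by Igfbp5 at 5.75 and Igf2 at 3.89 RPM per kb, with Pappa2 at 1.53. These orders cover the 10 genes alone. Igfbp2, a binding protein outside them, lay above all 10 in each type, at 47.4 RPM per kb in ACP, 38.7 in ACV and 38.1 in Larynx neurons. The SD over neurons exceeded the mean for each of these members in each type, so neighbors in these orders were not apart beyond their spread, and the lead of Pappa2 in ACP neurons also held with its highest neuron left out.

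A member was counted as different between 2 types where the mean levels were at least 2-fold apart and at least 10% of the neurons of 1 of them had a read. The 3 comparisons share neurons and are not independent of each other. Between ACP and ACV neurons 3 of 9 members met this, Pappa2 higher in ACP and Pappa and Igf1 higher in ACV, against 18.5% of the 13356 genes that could (9.87% higher in ACP and 8.63% higher in ACV). Between ACP and Larynx neurons 3 of 9 did, Pappa2 and Stc1 higher in ACP and Igfbp4 higher in Larynx, against 22.8% of 13256 genes (10.3% higher in ACP and 12.5% in Larynx). Between ACV and Larynx neurons 5 of 9 did, Igf1, Igfbp3 and Stc1 higher in ACV and Pappa2 and Igfbp4 higher in Larynx, against 24.4% of 13297 genes (10.4% higher in ACV and 14% in Larynx). The sets of neurons with less Apoe or microglia RNA gave other counts, of 3 to 6 members between ACP and ACV. The members' median log2 ratios were 0.01, -0.23 and -0.39, beside 0.00, -0.03 and -0.02 for all genes. Because the members were chosen from these levels, nothing is read from the shares or medians.

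**Figure D4:**
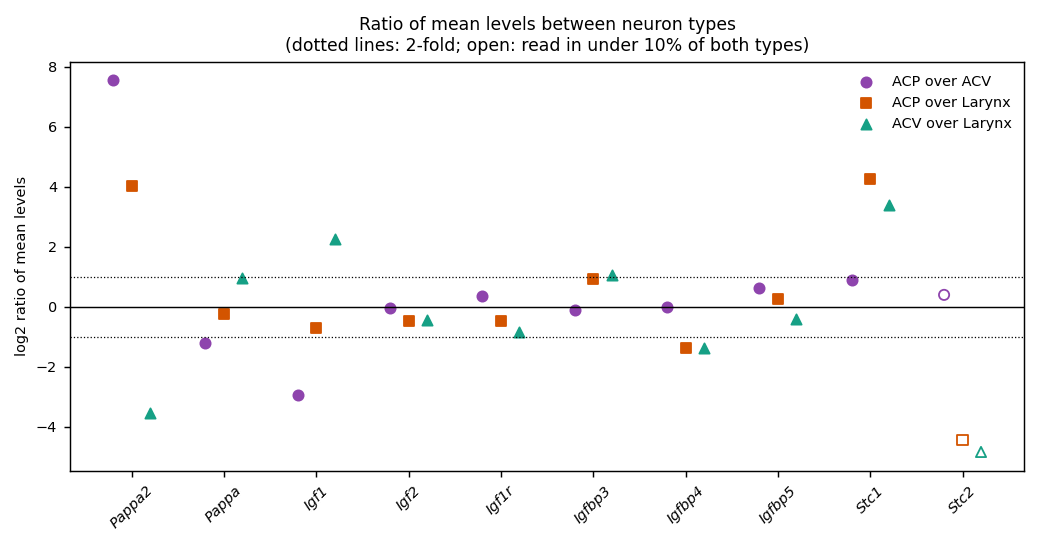
Log2 ratio of mean levels for each gene in the 3 comparisons (circles ACP over ACV, squares ACP over Larynx, triangles ACV over Larynx), with dotted lines at 2-fold and open symbols where under 10% of both types had a read. Pappa2 has ratios of 7.55, 4.02 and -3.54 and Igf1 of -2.94, -0.69 and 2.25, while Igf2, Igf1r and Igfbp5 stay between the dotted lines.

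Counts of genes read in the same neuron follow the shares of the single genes, above all that of Pappa2, which chose the set, and whether genes met more often than those shares give was not tested. Pappa2 and Igfbp5 were read together in 36 of 53 ACP neurons (67.9%, 53.7 to 80.1), 5 ACV and 5 Larynx neurons. Pappa2, a substrate (Igfbp3 or Igfbp5) and Igf1r were together in 33 ACP neurons (62.3%, 47.9 to 75.2). Of these 33, 21 also had a read of Igf1 or Igf2 and 12 had neither. Protease, substrate and receptor were thus read without ligand reads in 22.6% of ACP neurons (12.3 to 36.2). Igfbp5 reads went with markers of vessel cells. Of the 38 ACP neurons with Igfbp5, 14 had endothelial and 18 mural marker reads, against 0 and 0 of the 15 without. Oligodendrocyte markers had a lower median with it (135.4 against 691 RPM). The part of other cells in the substrate reads was not tested. Igf1 and Igf1r were read together in 62 of 98 ACV neurons (63.3%, 52.9 to 72.8), 20 ACP (37.7%) and 21 Larynx neurons (40.4%). The number of members read per neuron had a median of 4 in ACP (1 to 9), 4 in ACV (0 to 8) and 3 in Larynx neurons (0 to 9). Genes not read in a neuron may have been missed at its depth.

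**Figure D5:**
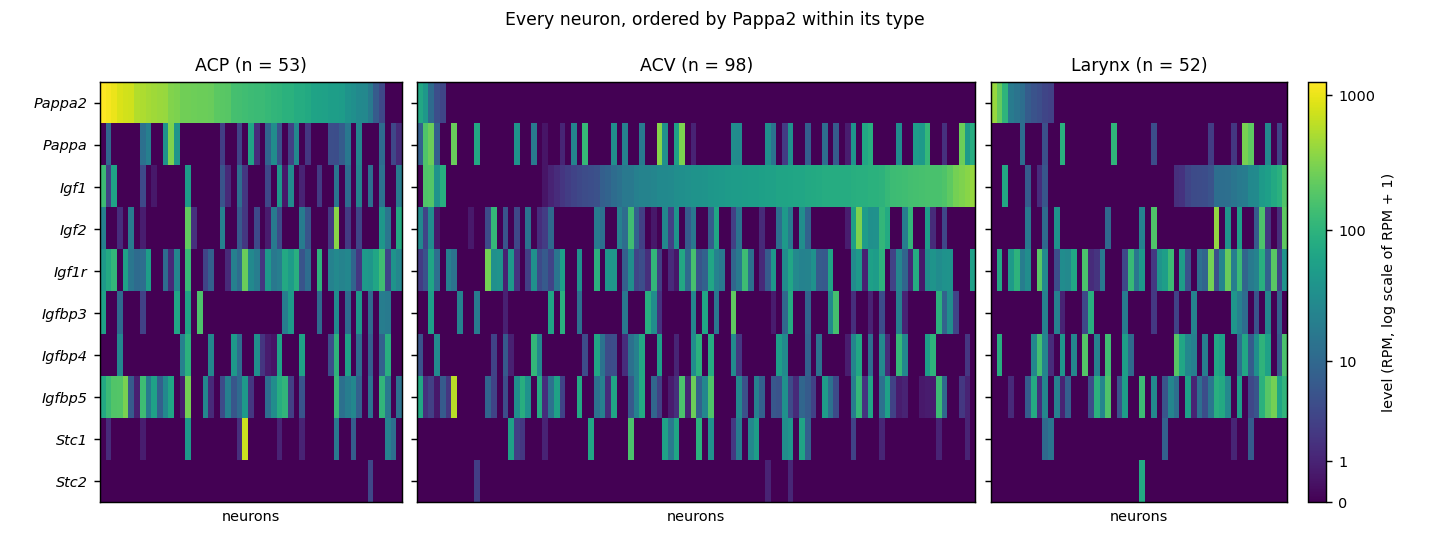
Level of the 10 genes (rows) in every neuron (columns), in color on a log scale of RPM + 1, with neurons of each type ordered by falling Pappa2 and then rising Igf1. The Pappa2 row is filled across 50 of 53 ACP neurons and the Igf1 row across 80 of 98 ACV neurons, while Igf1r and Igfbp5 are filled in most neurons of every type.

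The other genes of the pathway were taken from a list of 42, all in the table. Between ACP and ACV neurons 6 of the 36 that could be counted were 2-fold apart, 3 in each direction. Of the 5 genes of growth hormone signaling on it, a route that drives Igf1 transcription in the liver, Ghr and Stat5a were higher in ACP and Socs2 in ACV neurons, while Jak2 and Stat5b were under 2-fold. Ghr, the growth hormone receptor, had a mean of 14.4 ± 31.4 RPM in ACP, 6.30 ± 41.3 RPM in ACV and 2.94 ± 8.61 RPM in Larynx neurons, and was read in 45.3%, 19.4% and 17.3% of them. A single ACV neuron held 62.8% of the ACV counts of Ghr, and with the highest neuron of each type left out the means were 11.2 RPM in ACP, 2.20 RPM in ACV and 2.18 RPM in Larynx neurons, so that the ratio of ACV over Larynx rested on that neuron. Socs2, the feedback inhibitor of that receptor, ran against it, with 20.9 ± 41.4 RPM in ACP, 88.7 ± 69.6 RPM in ACV and 54.04 ± 73.4 RPM in Larynx neurons and reads in 50.9%, 94.9% and 82.7%. Socs2 is also on the study's list of ACV genes from these neurons, which marks it as not expressed in laryngeal neurons. Stat5a, a transcription factor of the same route, and Irs4, a receptor adaptor, were higher in ACP, at 6.34 and 9.38 RPM against 2.95 and 4.25 RPM in ACV neurons. With the highest neuron of each type left out Stat5a had 3.61 RPM in ACP and 1.92 RPM in ACV neurons, which is under 2-fold. Adam12, a protease that also cuts IGFBP3 and IGFBP5, and the kinase subunit gene Pik3cb were higher in ACV, at 2.94 and 6.29 RPM against 0.54 and 2.67 RPM.

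Between ACP and Larynx neurons 10 of 35 were 2-fold apart, 7 of them higher in Larynx. Igf2r, the receptor that carries IGF2 to the lysosome, had a mean of 55.3 ± 101.2 RPM in Larynx and 16.8 ± 38.3 RPM in ACP neurons. Htra1, a secreted serine protease that cuts binding proteins, had 81.5 ± 97.6 RPM in Larynx and 21.4 ± 41.2 RPM in ACP neurons. Igfbp7, Adam12, Irs1, Pik3cb and Socs2 were the others higher in Larynx. Igfbp6, a binding protein with a preference for IGF2, the kinase Akt2 and Ghr were higher in ACP. Between ACV and Larynx neurons 7 of 36 were 2-fold apart, Igfbp6, Foxo3 and Ghr higher in ACV and Igf2r, Htra1, Irs4 and Pik3cb higher in Larynx. These counts are 16.7%, 28.6% and 19.4% of the genes that could be counted, against 18.5%, 22.8% and 24.4% of all genes. Most of the downstream kinases, such as Akt1, Mtor and Gsk3b, were under 2-fold in all 3. Ins1, Ins2, Igfbp1, Igfals, Insrr and Prg2 (which encodes another inhibitor of PAPP-A) were read in under 10% of the neurons of every type.

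The genes whose level was most like that of Pappa2 over all neurons, by Pearson's r of ln(counts per 10000 + 1) among 12809 genes, were Dpy19l1 (0.72), Thsd7a (0.64), Ptprd (0.59), Ncam2 (0.59) and Slitrk5 (0.58). Dpy19l1 encodes a glycosyltransferase-like membrane protein, and Ptprd, Ncam2 and Slitrk5 encode cell surface proteins of neurons. Dpy19l1 had a mean of 172.8 RPM in ACP, 18.7 RPM in ACV and 40.9 RPM in Larynx neurons. Likeness over all neurons follows the types, and Dpy19l1, Thsd7a, Ptprd and Slitrk5 are, like Pappa2, on the study's list of ACP genes from these neurons. Within the 53 ACP neurons alone the closest genes were Sptbn1 (0.69), Plxna2 (0.67), Dpy19l1 (0.65), Ptprd (0.65) and Kif1a (0.63), of which Dpy19l1 and Ptprd are also in the first 5 over all neurons. Among the members the closest within ACP neurons was Igfbp5 (0.45), while the others lay between -0.20 and 0.23. The neurons share libraries made in the same way and differ in depth, and these r are descriptions.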

How the data were processed

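Neurons of the nucleus ambiguus were sequenced singly, and each sample is 1 neuron. Reads were trimmed (Skewer) and aligned to mm10 (STAR 2.6.1d) by the authors, who deposited raw counts per gene and neuron. The program, annotation and strand setting used for counting are not given in the sources used here. Neuron types were taken from the deposited annotation. A second deposited table, named CPM, was not used.

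Counts were divided by the neuron's total outside Rn45s and given per 1000000 (RPM). Type means were compared as ratios, and a type without a count was set to 3 counts over its neurons. A gene counted as different at 2-fold or more with a read in at least 10% of either type. Shares were given exact binomial and sums exact Poisson 95% intervals. The labels name no mouse, so no test was made. Exon lengths and coordinates came from GENCODE vM21 (GRCm38). A limit of 1800 counts of Apoe per neuron is stated in the study's methods, yet 11 ACP and 28 ACV neurons in the deposited counts were above it. They were kept, and results without them were computed as an alternative.

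The members, the lists and the rules were chosen with earlier results of these data known. Genes named beyond the 10 members were those of a list of 42 pathway genes that were 2-fold apart in a comparison, the 5 most like Pappa2, and some named only as examples of genes that were not. The alternatives were other totals (Rn45s included, TMM library sizes from edgeR 4.0.16, DESeq2 1.42.0 size factors, summed counts), neurons of 1000000 counts or more, neurons of no more than 900 counts of Apoe, thinned counts, the highest neuron of each type left out, and other fold and detection minimums. The scripts were tested on simulated data and ran in Python 3.11.15 with numpy 2.4.6, scipy 1.17.1 and pandas 2.3.3, and in R 4.3.3.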

Additional observations from a re-analysis of the deposited data

How the results depend on the processing

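The log2 ratio of Pappa2 between ACP and ACV, 7.55 as reported, stayed above 7 in every alternative run. It was 8.09 from summed counts, 8.07 in neurons with at least 1000000 counts, 8.51 with the highest neuron of each type left out, and, in alternatives chosen after seeing the data, 7.16 in neurons with at most 1800 counts of Apoe and 8.03 in neurons at or under the median of microglia markers. For ACP over Larynx, 4.02 as reported, it was 4.89 with Rn45s in the totals, 4.31 with TMM library sizes, 4.56 from summed counts, 4.1998 after thinning, 4.88 without the highest neurons and 3.39 at low microglia markers. For ACV over Larynx, -3.54 as reported, it was -2.75 with Rn45s in the totals, -4.21 at 1000000 counts or more, -3.91 and -3.05 at no more than 900 and 1800 counts of Apoe, and -4.64 at low microglia markers. The members past 2-fold between ACP and ACV, 3 as reported, were 6 at no more than 900 counts of Apoe, 5 at low microglia markers and 5 with a fold minimum of 1.5. Those between ACP and Larynx, 3 as reported, were 5 under the same settings. Those between ACV and Larynx, 5 as reported, were 3 with a fold minimum of 3 and 3 with a detection minimum of 25%. The sign of a called member turned once, for Stc1 in ACP over Larynx (-0.24 at low microglia markers). The causes were not tested. The Apoe limit of 900 left 26 ACP, 44 ACV and 38 Larynx neurons. No paired analysis was possible because a neuron's number only names it. In the shallowest neuron 1 count was worth 8.44 RPM, which limits what a 0 there can show.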
